A study of Trametes coccinea with 9 samples.

Results

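The 21 gene models described here were the ones of *Pycnoporus coccineus* CIRM-BRFM 310 whose transcripts were several times higher in aspen cultures than in both pine and maltose cultures. They were chosen on their measured levels in the authors' normalized counts, which are read counts per gene multiplied by 1 constant per library. The mean of the 3 libraries of a condition plus 10 is called A for aspen, P for pine and M for maltose. A gene was kept when A was at least 200, A/P and A/M were both at least 4, P/M was from 0.5 to 2, and every aspen value was above every pine and maltose value. Of the 11202 genes with normalized counts, 22 met these conditions, and gene 1464049, an AA2 peroxidase with an A/P of 110.4, was left out by name. The GH10 xylanase 1395316 and gene 1377160, named with it as exceptions, did not meet the conditions, since their P/M was 2.87 and 5.14. The 1488 genes that had raw counts only held no further gene meeting them. Because all contrasts between the conditions were used in the choice, the levels and ratios of these genes are a description and carry no test. High on aspen only is therefore a statement about these 3 media, and none of the 21 genes was without reads on pine or maltose.

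The study grew 1 monokaryotic strain in shaken liquid culture at 30 °C for 3 days, in triplicate, and sequenced poly A RNA of the mycelium as paired reads. The aspen cultures held 15 g/l of Wiley-milled aspen, and the pine cultures held 15 g/l of ground and sifted pine with 2.5 g/l maltose. The study's methods give the same small maltose addition for aspen, and the control cultures held 20 g/l maltose and no wood. All media shared the same salts, yeast extract and thiamin, and neither wood powder was extracted or pretreated. The pine powder included bark and was prepared in another way, so wood species, bark and particle preparation cannot be told apart between aspen and pine. Likewise, wood and the lower maltose supply cannot be told apart between aspen and maltose. Total counts were 28399534 to 38654866 per library, and of the counts from 1 to 49 only 17.99% to 27.98% were odd numbers, so a fragment mostly added 2 to a count. In bulk RNA of mycelium, more cells that express a gene and more RNA per cell cannot be told apart.

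White-rot fungi such as *P. coccineus* grow on wood by secreting enzymes that attack cellulose, hemicelluloses and lignin, and by taking up and converting the small molecules that are set free. The hemicelluloses of aspen, a hardwood, are mostly xylans, and those of pine, a resin-rich softwood, mostly mannans. Glycoside hydrolases (GH) cut bonds between sugars, and carbohydrate-binding modules (CBM) hold such enzymes on their substrate. Cytochrome P450s are heme monooxygenases that insert oxygen into lipids, aromatic compounds and many other small molecules. A signal peptide at the start of a protein directs it into the secretory route.

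Like most genes measured, most of the 21 genes had no named family in the study's tables of carbohydrate-active enzymes, cytochrome P450s and sequences of unknown function. One was listed as a carbohydrate-active enzyme (1404940, CBM1-GH3) and 1 as a cytochrome P450 (1362757), which together make 2 of the 21. Another 9 were listed as sequences of unknown function, 3 with and 6 without a predicted signal peptide. The other 10 were in none of these tables, and the reference annotation gave them no name. Of all 11202 genes with normalized counts, 329 were listed as carbohydrate-active enzymes or cytochrome P450s and 2117 as of unknown function. Most genes were therefore in none of the tables, so this is no trait of the 21 genes. Absence from the tables does not show that a gene lacks a function, and the P450 table could be read for 61 genes only. Sequences of unknown function made up 42.9% of the 21 genes and 18.9% of all genes with normalized counts. Among the 8126 genes with an aspen mean of at least 200 they made up 18.3%.

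In the aspen cultures the 21 genes averaged 236.8 to 9114 normalized counts, with a median over genes of 2398. The corresponding means ran from 23.5 to 1435 on pine with a median of 116.4, and from 19.3 to 1353 on maltose with a median of 105.9. A/P was 4.35 to 54.5 with a median of 7.07, and A/M was 5.004 to 58.6 with a median of 10.3. The sums over the 21 genes were 0.150%, 0.177% and 0.135% of the normalized counts in aspen replicates 1 to 3, against 0.0174%, 0.0133% and 0.0128% on pine and 0.0156%, 0.0144% and 0.0199% on maltose. The lowest aspen value of a gene was 1.41 to 28.5 times its highest pine or maltose value, and it was at least 2 times that value in 19 of the 21 genes. The exceptions were 1404940 and 1464224.

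**Figure D1:**
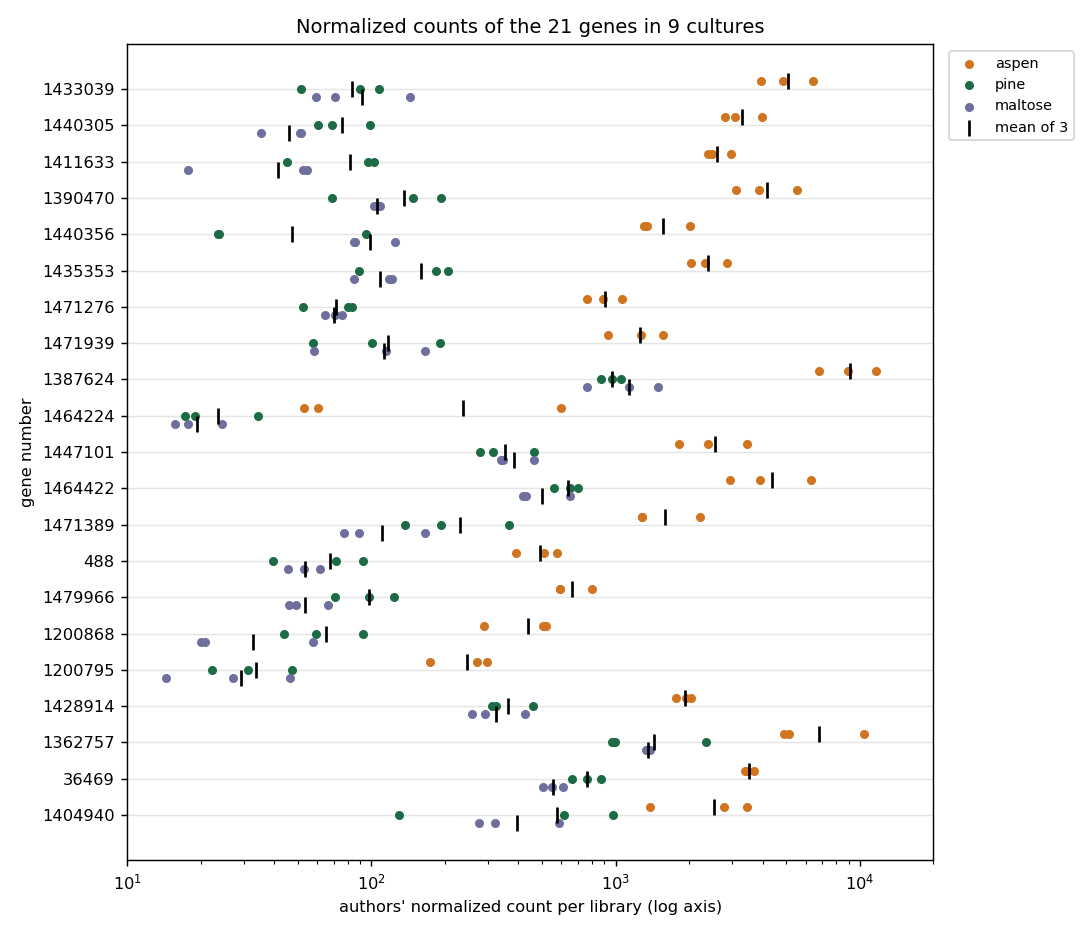
Normalized counts of the 21 genes (vertical axis, ordered by A/P) in the 3 aspen, 3 pine and 3 maltose libraries (horizontal log axis), with the mean of each condition as a tick. The aspen values lie to the right of all others in each row, as the choice of genes requires, and gene 1464224 has 1 aspen value of 597.3 beside 2 near 50 to 60.

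The GH3 enzyme and the P450 stood at the weak end of the range of A/P. Gene 1404940 encodes a GH3 enzyme, a family of mostly β-glucosidases and β-xylosidases, which release single sugars from short chains, and it carries CBM1, a cellulose-binding module. It had 2770, 1379 and 3463 normalized counts in aspen replicates 1, 2 and 3, 615.5, 979.3 and 130.1 in the pine replicates, and 320.3, 275.4 and 586.0 in the maltose replicates. The lowest aspen culture was only 1.41 times the highest pine culture, and pine replicate 3 was far below the other pine cultures. At the protein level, the study detected 1404940 in the culture fluids of both woods and not in that of maltose. The log2 fold change of 1404940 from edgeR on the raw counts was 2.15 against pine (standard error 0.56) and 2.68 against maltose (standard error 0.57). The value against pine was 1.69 without pine replicate 3 and 2.76 without pine replicate 2, and the value against maltose was 1.74 with trim length as a term. Its A/P of 4.35 was the smallest of the 21 genes and was the highest of the 7 GH3 genes measured. Of those 7 genes, 2 were called higher and 1 lower on aspen than on pine by edgeR's quasi-likelihood test (Benjamini-Hochberg adjusted p under 0.05), beside 15.1% and 15.2% of all 11130 genes tested. The lower one was 1434274, which met the mirrored conditions for genes high on pine only, with 870.7, 1818 and 1987 normalized counts on aspen, 5789, 9425 and 7396 on pine, and 1459, 1423 and 1821 on maltose.

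Gene 1362757, a P450 that the study placed in its CYP4/CYP19/CYP26 class, had 10421, 4884 and 5125 normalized counts in the aspen replicates, 2342, 997.8 and 964.3 in the pine replicates, and 1343, 1379 and 1336 in the maltose replicates. Replicate 1 was more than 2 times each other replicate both on aspen and on pine, while the maltose cultures differed little. Its log2 fold change was 2.26 against pine (standard error 0.38) and 2.33 against maltose (standard error 0.38). It was 1.81 and 1.88 without aspen replicate 1. Of the 61 P450s that could be read from the study's table, 36 were called higher and 21 lower on aspen than on maltose, beside 26.3% and 24.9% of the 11130 genes tested by edgeR at an adjusted p under 0.05. Against pine, 15 were called higher and 15 lower on aspen, beside 15.1% and 15.2%. Only the CYP2-class gene 1410653 had a larger A/P, 4.95, but its A/M was 1.69. P450 genes often occur as similar copies, and whether reads of 1362757 could be shared with a copy was not tested.

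Another 3 genes, all of unknown function, carried a predicted signal peptide, which marks them as candidates for secretion. The study lists proteins of unknown function that it identified in its culture fluids. Which of these 3 genes are among them is not reported here. Gene 1435353, which the study lists as endoglucanase-like, a name for enzymes that cut within cellulose chains, had 2317, 2851 and 2026 normalized counts on aspen, 89.2, 184.3 and 206.2 on pine, and 121.2, 117.9 and 85.1 on maltose. All 3 aspen cultures of 1435353 had more than 9 times the count of the highest other culture, and the pine and maltose values overlapped. Its log2 fold change was 3.95 against pine (standard error 0.30) and 4.47 against maltose (standard error 0.31).

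Gene 1440356 had 2014, 1346 and 1311 normalized counts on aspen, 23.6, 23.7 and 95.2 on pine, and 124.5, 85.5 and 85.1 on maltose. It was the gene with the lowest pine level relative to maltose, with a P/M of 0.53. Replicate 3 was 4 times the other pine cultures and lay within the range of the maltose cultures. The log2 fold change of 1440356 was 5.12 against pine (standard error 0.47) and 3.98 against maltose (standard error 0.43), and the value against pine was 6.04 without pine replicate 3. Gene 1464422 was much higher than these in every medium, with 2951, 6290 and 3898 normalized counts on aspen, 653.1, 701.6 and 558.3 on pine, and 418.1, 429.7 and 651.4 on maltose. Its aspen cultures differed by 2.13 times, and its log2 fold change was 2.80 against pine and 3.13 against maltose (standard error 0.29 each).

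Of the genes of unknown function without a predicted signal peptide, 1390470 had the largest ratios. It had 3859, 5510 and 3117 normalized counts on aspen, 68.8, 147.4 and 193.5 on pine, and 102.3, 108.5 and 106.9 on maltose. The maltose cultures were nearly alike and lay within the wider spread of the pine cultures. The log2 fold change was 4.98 against pine and 5.29 against maltose (standard error 0.35 each). Gene 36469 had the smallest spread on aspen of all 21 genes, with 3478, 3688 and 3375 normalized counts, a coefficient of variation of 4.54%. Its values were 872.3, 664.7 and 761.3 on pine and 504.9, 607.1 and 547.4 on maltose. Here all pine cultures lay above all maltose cultures, and the log2 fold change was 2.22 against pine and 2.66 against maltose (standard error 0.19 each).

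The other 4 genes of this class were lower on aspen. Gene 1471276 had 766.7, 1060 and 887.4 normalized counts on aspen, 80.6, 82.9 and 52.3 on pine, and 75.6, 70.9 and 64.3 on maltose. Gene 488 had 509.4, 573.1 and 390.1 on aspen, 72.0, 39.5 and 92.0 on pine, and 45.6, 53.2 and 61.4 on maltose. For both, pine and maltose cultures overlapped, and A/P was 11.2 for 1471276 and 6.44 for 488. Genes 1200795 and 1200868, which lie close to each other, are described with their neighbours.

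The largest contrasts between aspen and pine were in genes outside the study's tables. Gene 1433039 had 4821, 6450 and 3923 normalized counts on aspen, 90.2, 51.3 and 107.8 on pine, and 71.2, 59.5 and 144.5 on maltose. Its lowest aspen culture was 27.1 times its highest other culture, which was maltose replicate 3. With an A/P of 54.5 it led the 21 genes in this ratio, and its log2 fold change was 5.96 against pine (standard error 0.40) and 5.78 against maltose (standard error 0.39). Gene 1440305 followed, with 3068, 3958 and 2802 normalized counts on aspen, 68.8, 60.5 and 98.3 on pine, and 51.2, 35.5 and 51.5 on maltose. All pine cultures of 1440305 were above all maltose cultures, and its A/M of 58.6 was the highest of the 21 genes. The log2 fold change was 5.47 against pine (standard error 0.27) and 6.15 against maltose (standard error 0.28). Gene 1411633 had 2478, 2965 and 2380 normalized counts on aspen, 45.1, 102.7 and 96.7 on pine, and 52.3, 17.7 and 54.4 on maltose. Pine and maltose overlapped, and the log2 fold change was 5.04 against pine (standard error 0.39) and 5.97 against maltose (standard error 0.41).

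Gene 1387624 had the highest mean count on aspen, though a count also grows with the length of a gene. Per kilobase of gene length, 1390470 was slightly higher on aspen, with 4778.5 against 4676 for 1387624. Gene 1387624 had 6825, 11598 and 8918 normalized counts on aspen, 870.1, 1049 and 967.5 on pine, and 1495, 1133 and 764.2 on maltose. Its maltose cultures spanned more than its pine cultures, and its log2 fold change was 3.27 against pine and 3.01 against maltose (standard error 0.28 each). Gene 1447101 had 1813, 3458 and 2387 normalized counts on aspen, 465.1, 277.7 and 314.0 on pine, and 345.8, 340.0 and 465.3 on maltose. Pine and maltose overlapped for this gene too, and P/M was 0.92. Gene 1428914 had 2038, 1943 and 1760 normalized counts on aspen, 458.7, 322.5 and 310.9 on pine, and 258.0, 293.1 and 423.7 on maltose. Its aspen cultures were close together, with a coefficient of variation of 7.39%, and A/P was 5.14.

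Gene 1479966 had 593.0, 801.4 and 591.3 normalized counts on aspen, 97.8, 71.1 and 123.7 on pine, and 48.9, 45.9 and 66.3 on maltose. It was the third gene, beside 36469 and 1440305, in which all pine cultures exceeded all maltose cultures. Gene 1471389 lay on the edge of the conditions, with a P/M of 1.999. Its values were 1276, 2220 and 1280 normalized counts on aspen, 137.5, 192.2 and 364.8 on pine, and 89.0, 77.2 and 166.3 on maltose.

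Gene 1464224 was unlike the other 20 genes in that a single library carried its level. It had 597.3, 52.9 and 60.4 normalized counts in aspen replicates 1, 2 and 3, 17.2, 34.2 and 19.0 in the pine replicates, and 24.5, 15.6 and 17.8 in the maltose replicates. In raw counts the aspen values were 557, 50 and 54. Replicate 1 exceeded the lowest aspen culture 11.3-fold, whereas for the other genes the highest aspen culture was 1.09 to 2.51 times the lowest. The log2 fold change of 1464224 was 3.36 against pine (standard error 0.82) and 3.61 against maltose (standard error 0.83), and it was 1.29 and 1.54 without aspen replicate 1. Without that library, the conditions were met by 21 genes, of which 19 were among the 21 described here. The lost genes were 1464224 and 1362757.

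The plane of the 2 ratios shows where the 21 genes lay among all genes with a comparable aspen level. With edgeR's quasi-likelihood test at a Benjamini-Hochberg adjusted p under 0.05, 21 of the 21 genes were called higher on aspen than on pine, beside 15.1% of the 11130 genes tested, and 21 of 21 were called higher on aspen than on maltose, beside 26.3%. These contrasts were used to choose the genes, so nothing is read from the counts. Over all genes tested the median log2 fold change was 0.051 against pine and -0.024 against maltose, while over the 21 genes it was 2.89 and 3.61. All 21 genes passed the filter on low counts.

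**Figure D2:**
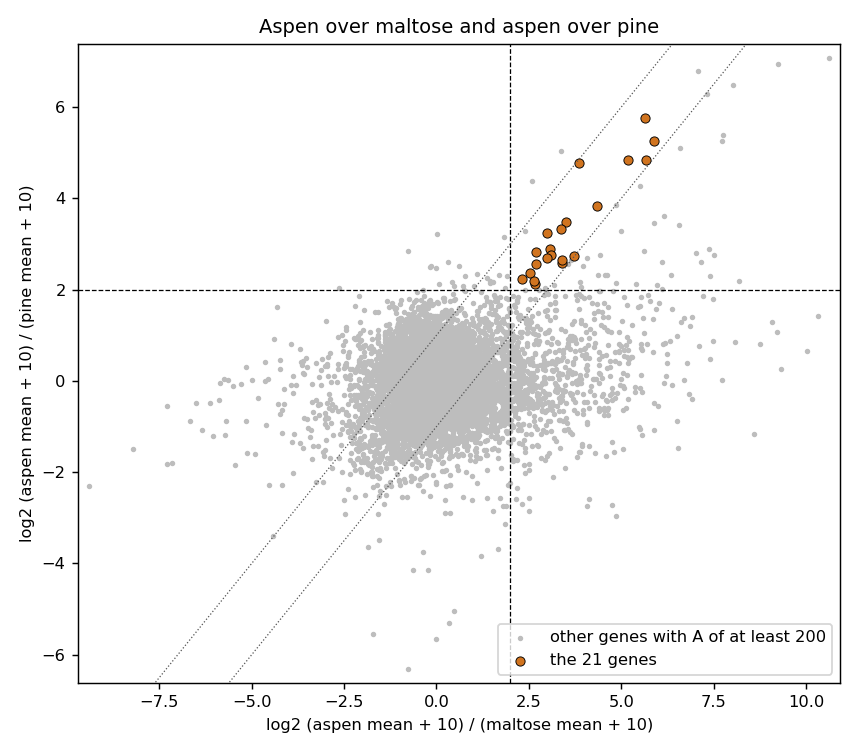
Each point is a gene with an aspen mean plus 10 (A) of at least 200, placed by log2 A/M (horizontal) and log2 A/P (vertical), with the 21 genes in orange. Dashed lines mark the ratio of 4, and dotted lines mark P/M of 0.5 and 2. The 21 genes fill the narrow band between the dotted lines from an A/P of 4.35 up to 54.5, and grey points inside the upper right corner lie mostly to the right of the band, where pine was above maltose.

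Pine and maltose levels were close by choice but were not always the same. P/M was 0.53 to 2.00 with a median of 1.23, and pine was above maltose on average in 17 of the 21 genes. The single libraries of pine and maltose overlapped in 18 genes and all pine libraries were above all maltose libraries in 3, as they were in 30.9% of all genes with normalized counts. No overlap in either direction was found in 62.2% of all genes, and the limits on P/M bear on this count. Between pine and maltose, 5 of the 21 genes were called, 4 higher on pine (36469, 1440305, 1471389 and 1479966) and 1 lower (1440356), beside 57.9% of all genes tested in either direction, and again the choice had used this contrast. That count was 0 without maltose replicate 1 or maltose replicate 2, and it was 2 without pine replicate 3.

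The conditions cut through a continuous range of ratios. The genes nearest to a limit from inside were 1471389 (P/M 1.999), 1440356 (P/M 0.530), 1404940 (A/P 4.35), 1411633 (P/M 1.78) and 36469 (A/P 4.54). Just outside lay 1376091, a GH131 gene (P/M 2.01, A/P 6.25), the gene of unknown function 1200763 (P/M 2.01, A/P 14.4), 1435900 (A/P 3.96), 1426557 (A/P 3.95) and 1367694 (P/M 2.02). Over all genes that missed a single condition, 35 failed only because P/M was above 2, 18 failed only on A/P and 6 failed only on A/M.

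Within each condition the 21 genes did not scatter evenly over the cultures. Aspen replicate 2 was the highest aspen culture for 14 of the 21 genes (66.7%), whereas it was the highest for 27.1% of the 8126 genes with an aspen mean of at least 200. Its values lay at a median of 0.23 on the log2 scale above the mean of the 3 aspen cultures. Replicate 1 was the highest for 1440356, 1464224, 1428914 and 1362757, and replicate 3 for 1404940, 1200868 and 1200795. On maltose, replicate 3 was the highest for 12 of the 21 genes (57.1%, against 38.5% of all genes of that level), at a median of 0.20 above the mean. On pine, replicate 3 was the highest for 10 genes (47.6% against 31.6%). The genes share these libraries, so the shares are no independent observations. Aspen replicate 2 was also the only aspen library that the authors trimmed to the shorter read length, and the part of this in the pattern was not tested.

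**Figure D3:**
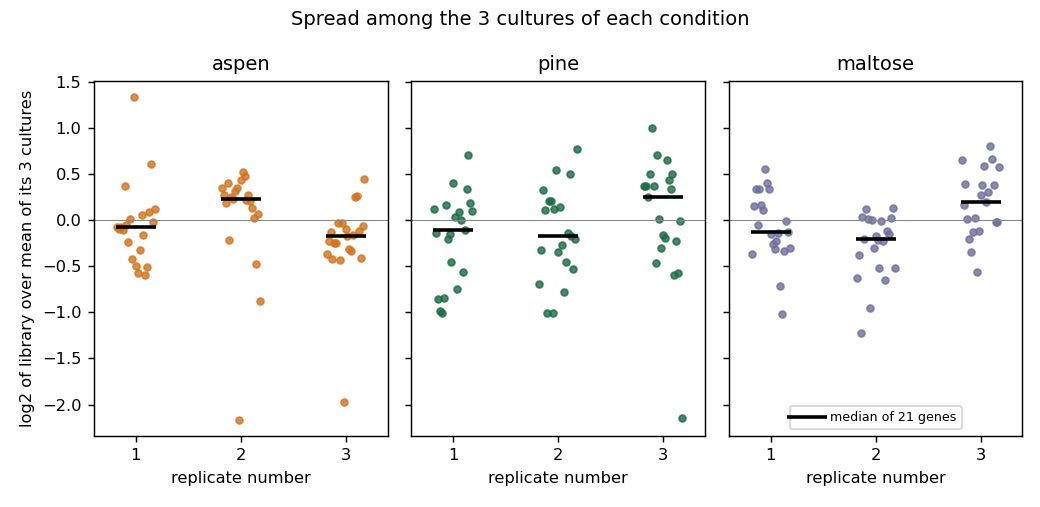
Each dot is 1 of the 21 genes, shown as the log2 of a library over the mean of the 3 cultures of its condition (vertical), by replicate number (horizontal) for aspen, pine and maltose, with black bars for the median over the genes. In aspen replicate 2 most dots lie above 0, and the single dots near -2 on aspen belong to 1464224.

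The spread between replicates of these genes was wider than usual. The coefficient of variation over the 3 aspen cultures had a median of 25.4% in the 21 genes and 13.3% in all genes with an aspen mean of at least 200. It was 38.0% against 20.98% on pine and 23.8% against 14.05% on maltose. The medians of the 21 genes on pine and maltose, 116.4 and 105.9 normalized counts, were far below their median on aspen, and low counts vary more, so the comparison with genes of that aspen level is not on equal terms there.

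The libraries differed in trim length and in the first letters of the library code, and the ratios were taken within these groups as well. With the longer trim length, in aspen replicates 1 and 3 and pine replicate 2, A/P was at least 4 in 20 of the 21 genes, with a median of 7.66. With the shorter trim length it was at least 4 in 18 genes, with a median of 8.68. The values below 4 with the shorter length were 2.24 for 1464224, 2.94 for 1362757 and 3.63 for 1404940, and with the longer length 3.16 for 1404940. Codes began with PAU for aspen replicates 1 and 2 and maltose replicate 3, and with PAW for the others. Aspen over maltose was at least 4 in 20 genes within PAU and in 19 within PAW, with medians of 9.97 and 10.5. It was 3.50 for 1404940 within PAU, and 2.34 for 1464224 and 3.74 for 1362757 within PAW. No pine library had the code PAU, so aspen and pine could be compared within PAW only through aspen replicate 3.

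**Figure D4:**
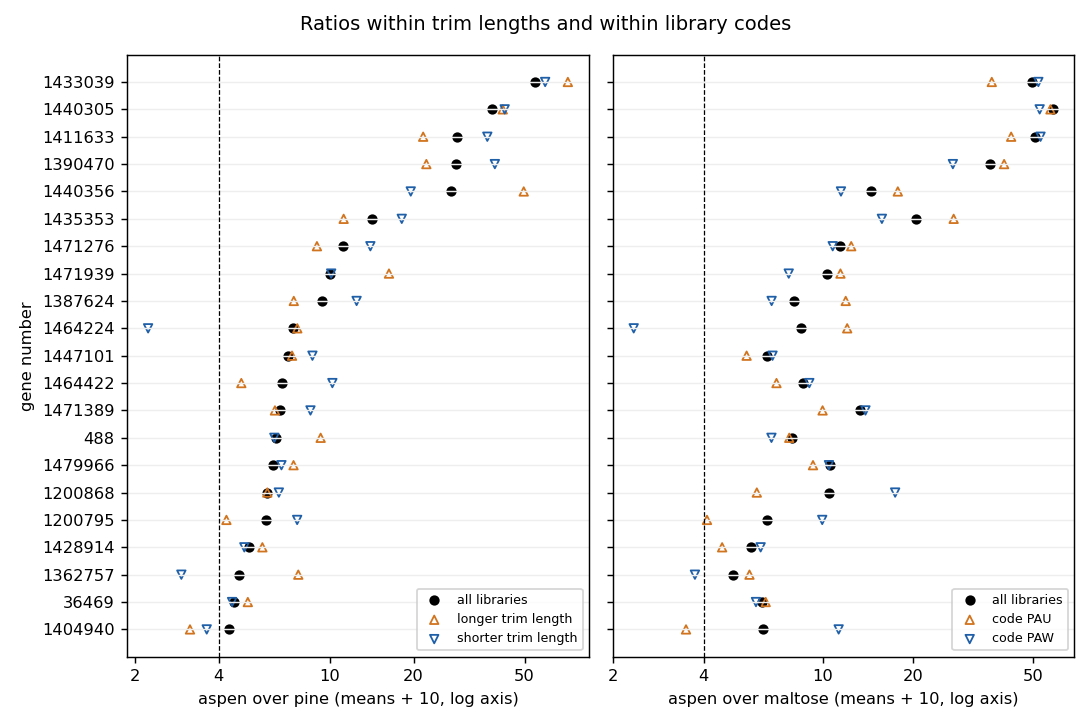
For each of the 21 genes (vertical), the left panel gives aspen over pine and the right panel aspen over maltose (means plus 10, log axes), as black dots for all libraries and as triangles within a trim length or library code. The dashed line marks the ratio of 4, and triangles to its left belong to 1464224, 1362757 and 1404940.

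Most of the 21 genes had none of the others within 5 genes of them in the gene order. The annotation of assembly Pycco1, used here for the order and positions of the gene models, held all 21, and 2 pairs lay within 5 genes of each other. Genes 1440305 and 1471939 were direct neighbours. Gene 1471939 had 1269, 1567 and 928.8 normalized counts on aspen, 101.0, 57.9 and 190.3 on pine, and 165.7, 58.4 and 114.8 on maltose, with an A/P of 10.01. The flanking genes of this pair did not share the pattern, since 1145209 on one side had an A/P of 0.992 and 1471940 on the other side 0.975. Both genes of the pair were highest in aspen replicate 2.

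The other pair, 1200795 and 1200868, lay at the start of an assembled sequence with 1200778 between them. Gene 1200795 had 173.7, 270.7 and 296.2 normalized counts on aspen, 31.2, 47.4 and 22.2 on pine, and 14.5, 27.1 and 46.5 on maltose. Gene 1200868 had 288.5, 503.3 and 519.7 on aspen, 44.0, 59.2 and 92.0 on pine, and 20.0, 20.9 and 57.4 on maltose. Both were lowest in aspen replicate 1, and the log2 fold change of 1200868 against maltose was 3.72, and 4.40 without maltose replicate 3. Gene 1200778 between them was low everywhere, with 6.43, 31.7 and 19.0 on aspen, 5.37, 6.58 and 1.59 on pine, and 4.45, 3.13 and 8.91 on maltose. The next gene, 1200763, had 1226, 1310 and 1302 normalized counts on aspen, 78.4, 68.4 and 92.0 on pine, and 33.4, 16.7 and 53.5 on maltose. It was kept out of the 21 genes only by its P/M of 2.01. Models 1200854, 1200795, 1200778, 1200868 and 1200763 follow each other so closely in the annotation that reads at their ends may have been split between them.

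**Figure D5:**
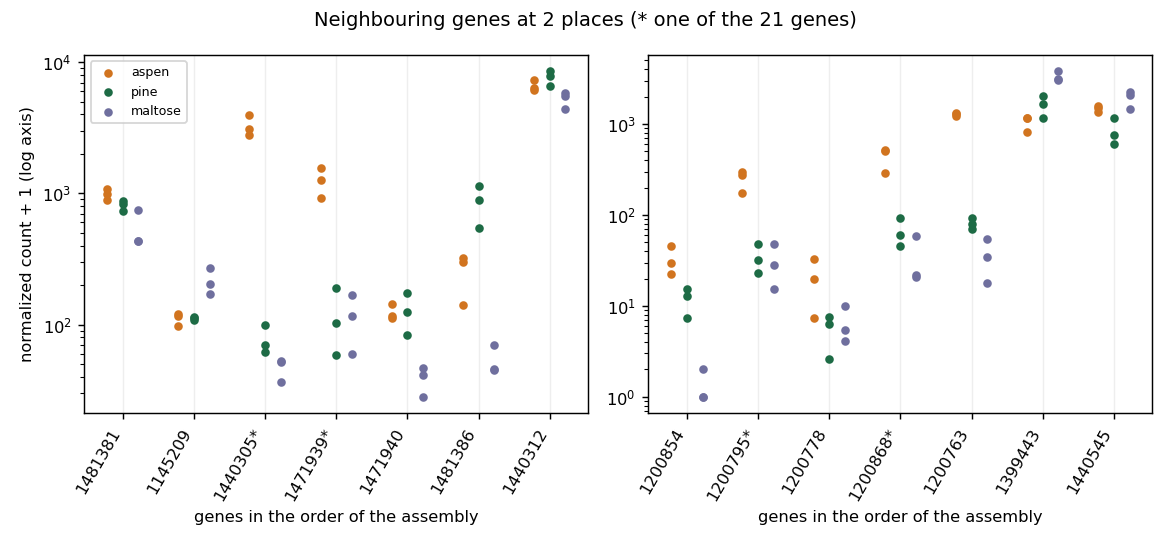
Normalized counts plus 1 (vertical log axes) in the 3 aspen, 3 pine and 3 maltose libraries for genes in the order of the assembly (horizontal), around 1440305 and 1471939 on the left and around 1200795 and 1200868 on the right. Asterisks mark the 21 genes. On the left the gap between aspen and the other media ends at the borders of the pair, and on the right it goes on to 1200763 with 1226 to 1310 normalized counts on aspen.

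Among the 40 flanking positions held by genes outside the set, 38 had normalized counts, with a median A/P of 1.35, and 8 were called higher on aspen than on pine, beside 15.1% of all genes tested. An A/P of at least 4 was found at 3 of them. These were 1200763, the GH131 gene 1376091 next to 1471389, and 1368320 next to 1411633. GH131 enzymes are fungal glucanases. For 1376091 the lowest aspen value was 197.7 and the highest pine or maltose value 86.9. Gene 1368320 had an A/P of 4.53 and an A/M of 14.8, and its model overlaps that of 1411633. Overlaps in the annotation were also present for 36469, 1404940, 1479966 and 1440356, and how the authors' counting treated strand and overlap is not given in the sources used here.

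None of the 21 genes belonged to GH10 xylanases, which cut the xylan backbone, to the enzymes that trim xylan side chains (GH43, GH51, GH115, CE1, CE15 and CE16), to AA9 lytic polysaccharide monooxygenases, AA2 peroxidases, AA3 oxidoreductases, AA5_1 glyoxal oxidases or the pectin enzymes. Of the 6 GH10 genes, 5 were called higher on aspen than on maltose and 3 higher on aspen than on pine, beside 26.3% and 15.1% of all genes tested. The median log2 fold change was 6.32 for aspen against maltose and 3.68 for pine against maltose. Of the 18 side-chain enzymes, 16 were called higher on aspen than on maltose, beside 26.3%, and 9 were called higher and 1 lower on aspen than on pine, beside 15.1% and 15.2% of all genes tested. Of the 15 AA9 genes, 14 were called higher on aspen than on maltose, beside 26.3%, but 4 were called higher and 4 lower on aspen than on pine, beside 15.1% and 15.2%. These lists hold the genes that were left out by name, GH10 with 1395316, the side-chain enzymes with 1377160 and AA2 with 1464049.

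The conditions with pine and aspen exchanged gave 25 genes high on pine only. Of these, 2 were carbohydrate-active enzymes, the GH3 gene 1434274 and the AA3_4 gene 1471985, and 7 were of unknown function, 4 of them with a predicted signal peptide. The other 16 were in none of the tables. P/A had a median of 5.85 and a range of 4.17 to 79.6, beside a range of A/P of 4.35 to 54.5 in the 21 genes. Gene 1464049, with an A/P of 110.4, had been left out of the 21 by name, whereas no gene was left out of the 25. The mean on pine had a median of 8643 normalized counts over those 25 genes, against a median mean on aspen of 2398 over the 21 genes. Gene lengths were not taken into account, and this difference was not tested.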

How the data were processed

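RNA of 9 cultures was measured, 3 each on aspen, pine and maltose. The authors aligned reads with TopHat2, keeping unique hits on this strain's genome, and counted them with HTSeq, and the deposited raw counts cover 12690 genes. The authors also deposited normalized counts, a signal made with DESeq (version 1.5 in the submitters' processing notes). In each library it equals the raw count times 1 constant, from 0.99 to 1.59. Members were chosen on these values. The members and gene lists were chosen with earlier results of these data known.

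Raw counts were fitted in R 4.3.3 with edgeR 4.0.16 (quasi-likelihood test, TMM factors 0.835 to 1.272, 1 model for 9 libraries). A mean raw count of at least 5 over the 9 libraries was required, which 11130 genes met. The study's methods also state a limit of 5, but normalized counts were given for 11202 genes, so the sets differed. Calls used a Benjamini-Hochberg adjusted p under 0.05. Standard errors are the size of the log2 fold change over the square root of F and restate the test. Values of the members carry no p. The fit was tested on simulated data. Replicates were separate cultures.

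Genes named were members with a family, the 10 with the highest aspen mean, the 10 with the largest A/P, the 5 nearest the limits on each side, and neighbouring members with the genes between. Other named genes were chosen after their values were seen, as were the GH3 counts. The alternatives were other constants, levels, ratios and scalings, medians, leaving out each library, DESeq2 1.42.0, no filter, Bonferroni adjustment, the replicate number, trim length or library code as a term. The P450 table could be read in part, for 61 genes. Python 3.11.15 with pandas 2.3.3 and numpy 2.4.6 was used. The counting of the authors and any sequences were not examined further.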

Additional observations from a re-analysis of the deposited data

How the results depend on the processing

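The number of genes meeting the conditions was 42 with ratios of at least 3 in place of 4. It was 15 to 27 under the other alternatives to the conditions, leaving out 1 library included. Leaving out 1 library gave 19 to 27 genes, of which 17 to 21 were among the 21. Scaling by TMM gave 26 genes, with all 21 among them. Of the 21 genes, 11 met the conditions under all 18 alternatives. The genes called higher on aspen than on maltose numbered 2925, and 787 with Bonferroni adjustment added. Those called higher on aspen than on pine numbered 1676, 100 with Bonferroni adjustment, 771 with library code as a term, and 1102 (without pine replicate 2) to 2196 (without pine replicate 1) with 1 library left out. On pine against maltose 6446 genes were called, and 1458 with Bonferroni adjustment. Of the members, 5 were called on pine against maltose, 0 with Bonferroni adjustment and 0 to 5 with 1 library left out. All 21 were called higher on aspen than on either medium, but with Bonferroni adjustment 17 were called against maltose and 15 against pine. Gene 1464224 lost its call against maltose with trim length as a term, and against pine with library code as a term or without aspen replicate 1, which left 20. DESeq2 gave no adjusted p for 1464224 and called the other 20 members in both comparisons with aspen. The cause of these shifts was not tested. Of 588 refitted log2 fold changes of single members, 9 moved by more than the spread between replicates and none turned its sign.

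Libraries of the same replicate number in different conditions correlated at -0.05 to 0.31 in their deviations from the group means, and not every pair was above 0.1, so the numbers were not taken to pair the cultures. With the replicate block, 3065 genes were called higher on aspen than on maltose, 1896 higher on aspen than on pine and 6673 on pine against maltose, and with it the members called numbered 21, 21 and 5.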
